A study of Populus alba x Populus glandulosa with 9 samples.

Results

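Of the 85755 gene identifiers measured along the stem of 84K poplar, 43 were close to silent in the top internodes and expressed in every library from further down. The levels are given in FPKM, the deposited measure of fragments scaled to gene length and library size. A gene was included when it had at most 0.2 FPKM in each of the 3 top libraries and at least 2 FPKM in each of the 3 middle and 3 bottom libraries, with a bottom mean less than 3 times the middle mean. The low level in the top and the higher levels below it are the measured values the genes were chosen by, and they are given here as a description, without a test.

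84K poplar, a laboratory tree, is a cross between Populus alba and Populus glandulosa. All 9 libraries came from stems of wild-type plants, 6 months old and about 200 cm tall, which had been propagated from cuttings and then grown under natural conditions. The top libraries came from internodes 2 to 3, the middle libraries from internodes 9 to 10 and the bottom libraries from internodes 14 to 15, as numbered in the labels, with 3 libraries at each position. The labels do not say whether the libraries of a position came from separate plants, so the spread between them may be partly technical. Stems hold many cell types, and a higher level in bulk RNA from more cells of a type cannot be told apart from more RNA per cell.

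Stem internodes mature with distance from the shoot tip. Young internodes still elongate and carry primary tissues, while in older internodes the vascular cambium adds secondary xylem and phloem, xylem vessels and fibres lay down thick lignified walls, and a periderm begins to replace the epidermis. The deposited tables give identifiers without gene names or functions, so the 43 genes are described by identifier and no role is given to any of them, and markers of cell types could not be read. Identifiers are of 3 classes, with A, G or Un after the prefix.

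The libraries held 41434042 to 75217046 counts each. Every entry was even, and a read pair is taken here as 2 counts. Middle library 2 stood apart most against the bottom. Its mean correlation of log2(FPKM + 1) across genes with the bottom libraries was 0.888, against 0.956 and 0.946 for middle libraries 1 and 3. Its gaps were smaller with the other middle libraries, at 0.933 against 0.9485 and 0.9496. With the top libraries it had 0.881, against 0.893 and 0.887. Without middle library 2 the rule found 56 genes, 42 of the 43 among them.

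In the top, the 43 genes together held 231 read pairs over the 3 libraries. All 3 top libraries had 0 counts for 9 of the genes, and another 10 were seen in 1 top library, 15 in 2 and 9 in 3. The median was 2 read pairs per gene over the top libraries and the highest was 23. Over the 6 lower libraries the same genes had 259 to 4432 read pairs each, with a median of 1456. The fewest read pairs of any gene in 1 lower library were 13, and 2 genes had under 20 in some lower library. The genes were thus measured with many read pairs below the top, and the top values rest on few, 0 to 23 per gene. In 9 of the genes they rest on 10 or more.

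**Figure D1:**
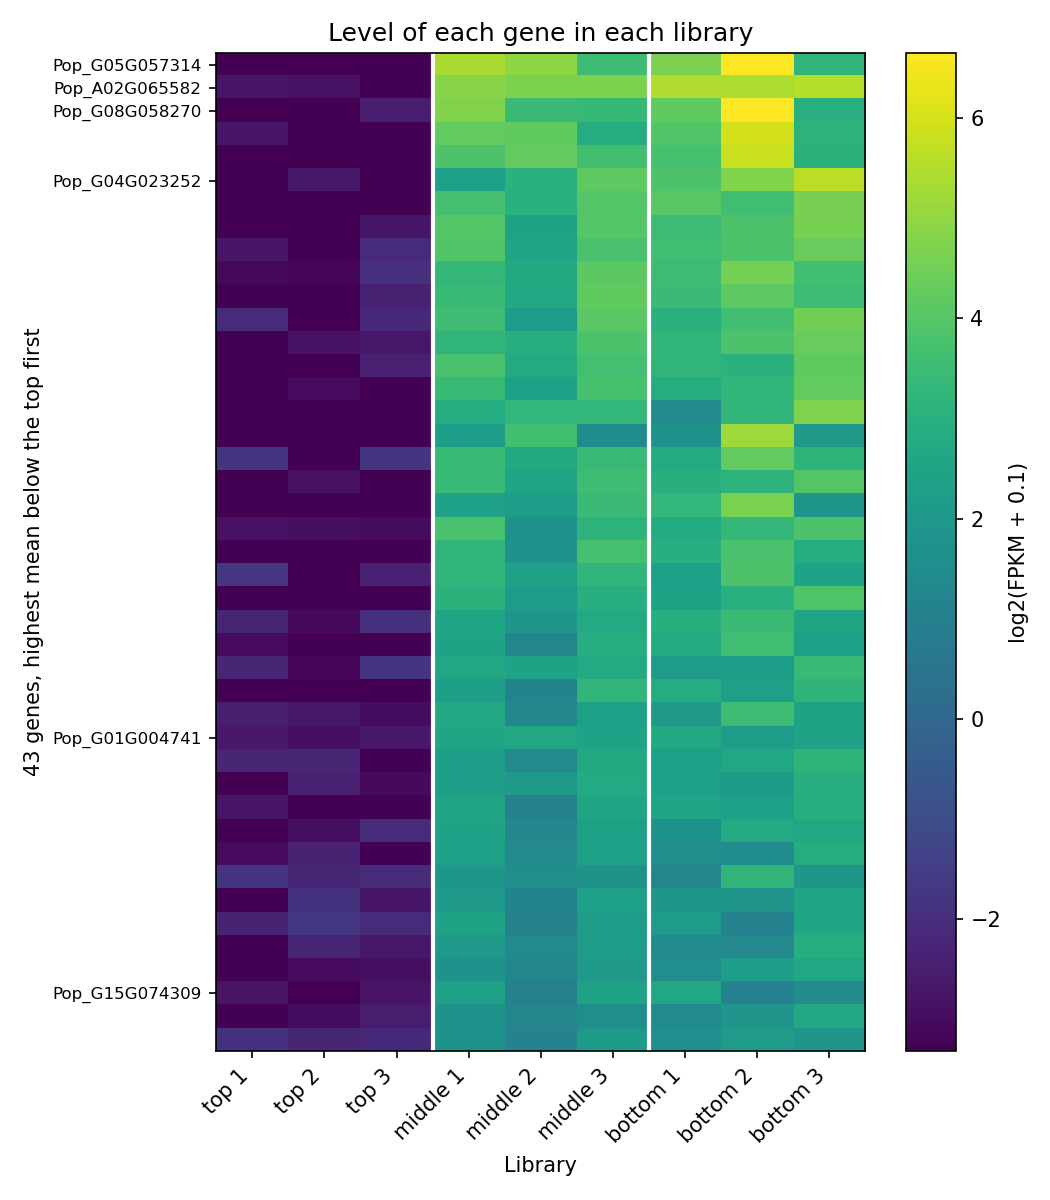
Level of the 43 genes in the 9 libraries, as log2(FPKM + 0.1), with 1 row per gene ordered by mean level below the top and white lines between top, middle and bottom. The 3 top columns are dark in every row, with at most 0.197 FPKM, and the rows differ in which middle or bottom library is brightest.

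How far 0 counts bound the top level depends on gene length, since a read pair is worth more FPKM in a short gene. For 7 of the genes, 3 read pairs in a single top library could stand for more than 0.2 FPKM, although over the 3 top libraries together 3 read pairs stayed under 0.2 FPKM for all 43. Limits of this kind cover counting error only. Of the 7 genes shorter than 500 bases, 5 had 0 counts in the top, against 4 of the 36 longer ones. The ceiling of 0.2 FPKM allows fewer read pairs in a short gene than in a long one. The choice of genes itself therefore favours this contrast.

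**Figure D2:**
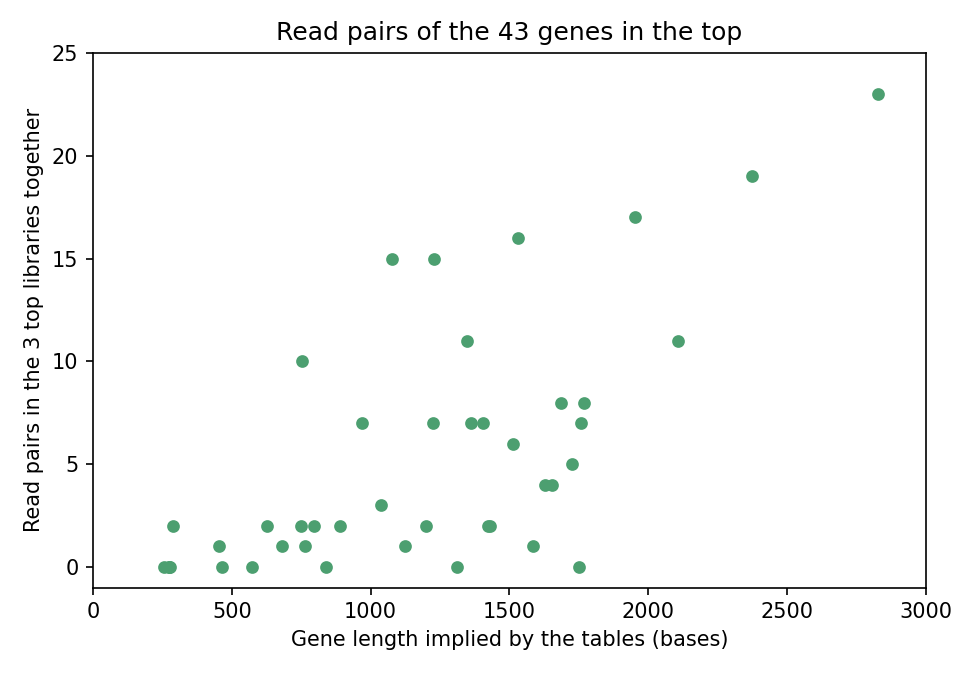
Read pairs of each of the 43 genes in the 3 top libraries together (vertical axis) against the gene length implied by the 2 deposited tables, in bases (horizontal axis). Of the 9 genes at 0, 5 are shorter than 500 bases, and the highest value, 23 read pairs, belongs to the longest gene, of 2829 bases. The ceiling of the rule allows more read pairs in longer genes.

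Ratios to the top were large for every one of the 43 genes, as the choice of genes requires. For the 9 genes at 0 counts in the top, set against 3 read pairs over the top libraries together, the middle was at least 44.8-fold to 670-fold higher and the bottom at least 58.9-fold to 976-fold higher. Among the other 34, the ratio of pooled read pairs, scaled to library totals, ran between 23.7 and 1024 for middle over top, with a median of 154, and between 27.2 and 1859 for bottom over top, with a median of 167. The smallest of them had exact binomial 95% intervals of 12.6 to 50.3 for middle over top and 16.3 to 49.1 for bottom over top. Such intervals, here and for single genes, cover counting error only and leave out the spread between libraries. With the genes at 0 counts set to their bound, the medians over all 43 were 148 and 197.

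All 43 genes passed the filter on low counts and were among the 52436 tested with edgeR's quasi-likelihood model, which they had to be given their levels below the top. All 43 were called higher in the middle and all 43 higher in the bottom, each against the top, at a Benjamini-Hochberg adjusted p under 0.05. Of all genes tested, 8.2% were called higher in the middle and 12.1% higher in the bottom. Because the same contrasts chose the genes, these counts add nothing to the choice itself. Without library number 3 at all positions, 24 of the 43 were called higher in the middle, where calls over all genes fell to 207, against 4301 with all libraries.

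Levels below the top differed widely among the 43 genes. Over the 6 lower libraries, the mean was under 5 FPKM for 10 genes, 5 to 10 for 15, 10 to 20 for 12 and 20 FPKM or more for 6. The lowest mean was 3.38 FPKM, the median 8.97 and the highest 36.5. Ranked against all genes with a count in a library, the median of the 43 stood at the 47.6th to 64.0th percentile in the middle libraries and at the 56.8th to 67.9th percentile in the bottom libraries. The 5 most abundant of the 43 made up 31.2% of their summed level.

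Pop_G05G057314 had the highest mean of the 43 below the top. No top library held a count of it, and it had 41.96, 30.6 and 11.7 FPKM in the middle libraries and 25.7, 99.9 and 9.30 FPKM in the bottom libraries. Bottom library 2 lay far above the rest and bottom library 3 below every middle library, so middle and bottom overlapped. Against 3 read pairs over the top libraries, it was at least 235-fold higher in the middle and at least 364-fold higher in the bottom. It is also the shortest of the 43, with an implied length of 256 bases, and a count of 0 allowed up to 0.422 FPKM in the shallowest top library.

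Pop_A02G065582, next in level, varied less between libraries. It had 0.048, 0.035 and 0 FPKM in the top libraries, 29.7, 25.6 and 25.7 FPKM in the middle libraries and 44.3, 42.4 and 46.5 FPKM in the bottom libraries. Every bottom library lay above every middle library, and it was the only one of the 43 with no overlap between bottom and middle. Its means were 44.4 ± 2.08 FPKM in the bottom and 27.0 ± 2.29 FPKM in the middle (SD, n = 3 each). The 2 read pairs in the top gave pooled ratios of 954 for middle over top (95% interval 264 to 7888) and 1555 for bottom over top (95% interval 430 to 12850).

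**Figure D3:**
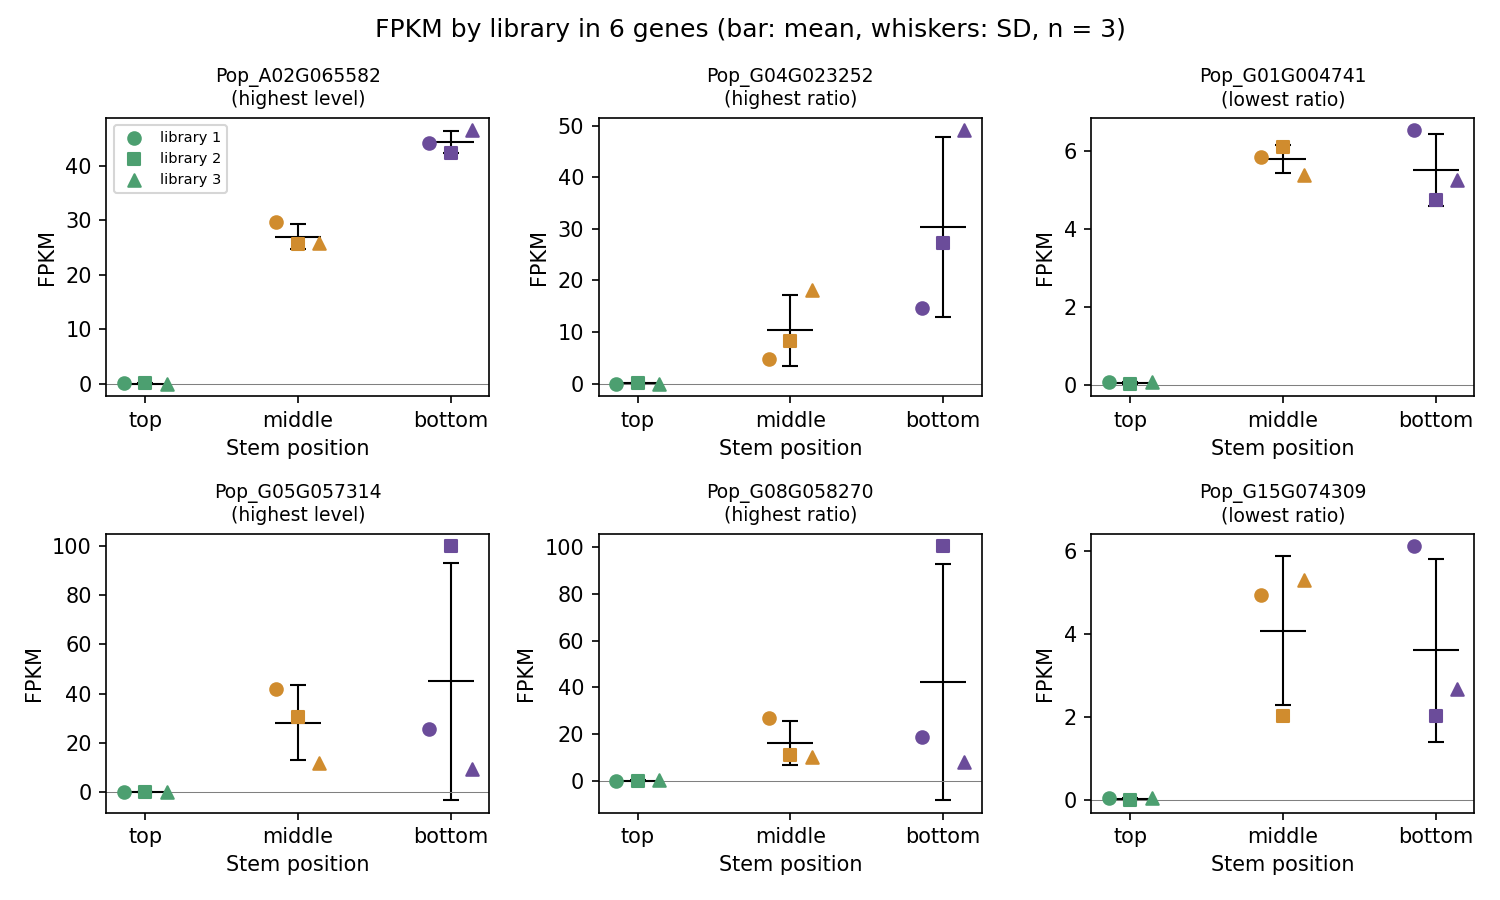
FPKM in each library at the 3 stem positions for 6 of the genes, with the mean (bar) and SD (whiskers, n = 3) and a marker shape for each library number. Pop_A02G065582 has 42.4 to 46.5 FPKM in the bottom and 25.6 to 29.7 in the middle, while Pop_G05G057314 and Pop_G08G058270 each have a single bottom library near 100 FPKM.

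Between middle and bottom, most of the 43 genes had the higher mean in the bottom, but few differed beyond the spread between libraries. The bottom mean was above the middle mean in 41 genes and below it in 2, and the ratio of bottom to middle ran between 0.88 and 2.93 with a median of 1.36 and quartiles of 1.14 and 1.52. Over all 35968 genes with at least 2 FPKM in every lower library, the bottom mean was higher in 67.4%, with a median ratio of 1.06. It was 1 to 1.5 in 29 genes, 1.5 to 2 in 9 and 2 to 3 in 3. The upper limit of 3 in the rule removed 0 genes, although the floor of 2 FPKM in both positions keeps out genes that fall low in either.

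For bottom against middle, edgeR called 0 of the 43 higher and 0 lower, where 0.0153% of all genes tested were called higher and 0.795% lower. At an unadjusted p under 0.05 it had 2 of the 43 higher and 0 lower, against 1.71% and 6.47% of all genes. DESeq2 called 1 of the 43 higher and 0 lower, where it called 0.213% and 3.18% of genes. Limma on log2(FPKM + 1) also called 1 higher and 0 lower, where it called 0.0153% and 0.585% of genes, and the gene was Pop_A02G065582 in both. The background of this step depended on single libraries: without bottom library 1, 2 or 3, edgeR called 15, 1 and 0 of all genes lower and 0 higher in each case. In this step a value that misses the threshold does not show that the positions were alike. Every bottom library exceeded every middle library in 1 of the 43 genes, against 9.72% of the 35968 genes with at least 2 FPKM in all lower libraries, and every middle library exceeded every bottom library in 0, against 5.42%. With middle library 2 left out, the counts were 1 and 0 of the 43, against 13% and 8.84%.

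**Figure D4:**
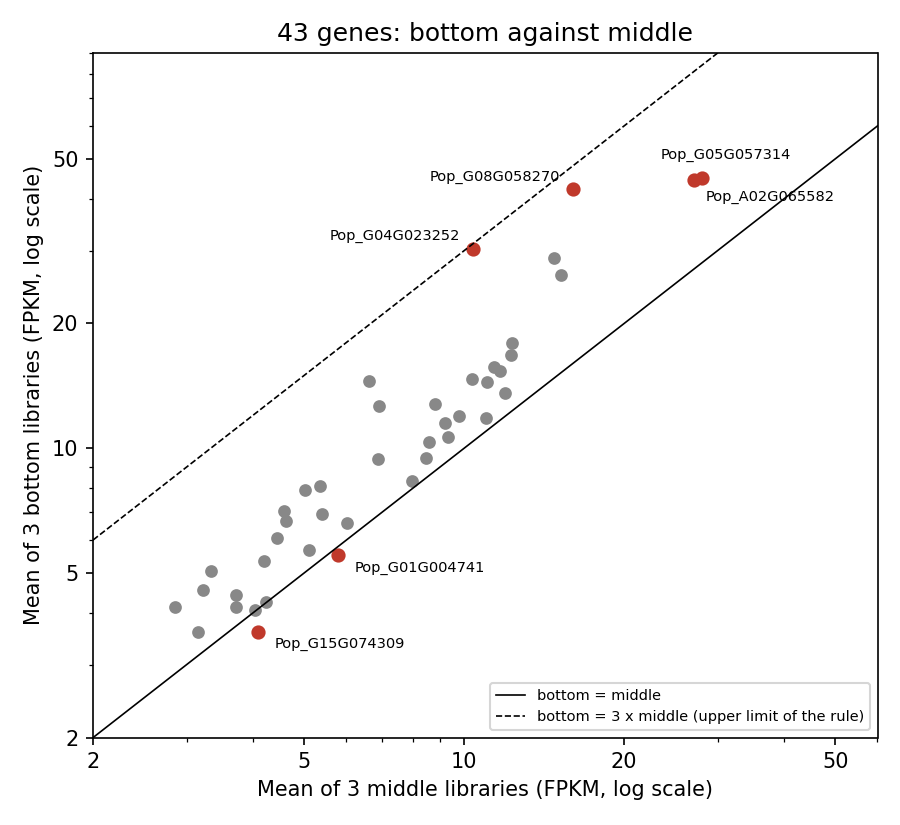
Mean of the 3 bottom libraries against mean of the 3 middle libraries for the 43 genes, in FPKM on log axes, with the line of equal means (solid) and the upper limit of the rule (dashed). All but 2 points lie above the solid line, with ratios between 0.88 and 2.93.

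The excess of bottom over middle leaned on single libraries. Without middle library 2, the bottom mean was above the middle mean in 28 of the 43 and the median ratio was 1.07. Without bottom library 3 it was above in 28, with a median ratio of 1.16, and without bottom library 2 in 32, with a median ratio of 1.247. Without middle library 1, middle library 3 or bottom library 1, 40 to 42 of the genes had the higher mean in the bottom. A broader group of 2735 genes was called higher in both lower positions, with at least 2 FPKM in all lower libraries but over 0.2 FPKM in every top library. Among them, the bottom mean was higher in 79.6% with a median ratio of 1.11, and in 69.8% with a median ratio of 1.08 without middle library 2. Among the 35968, it was 59.0% with a median ratio of 1.03 without that library. Without bottom library 3, the bottom mean was higher in 75.4% of the 2735 and 63.0% of the 35968. Without bottom library 2, it was higher in 73.9% and 68.5% in the same order.

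The largest ratio of bottom to middle belonged to Pop_G04G023252. It had 0, 0.06 and 0 FPKM in the top libraries, 4.81, 8.19 and 18.1 FPKM in the middle libraries and 14.6, 27.3 and 49.1 FPKM in the bottom libraries. Library 3 was the highest at both lower positions, and middle library 3 lay above bottom library 1. Its bottom mean of 30.3 ± 17.5 FPKM was 2.93 times its middle mean of 10.4 ± 6.90 FPKM (SD, n = 3 each).

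Pop_G08G058270 had the next ratio, 2.64, through a single library. It had 0, 0 and 0.078 FPKM in the top libraries, 26.96, 10.9 and 10.2 FPKM in the middle libraries and 18.5, 100.4 and 7.998 FPKM in the bottom libraries. Apart from bottom library 2, its bottom values lay within or below the range of the middle libraries.

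Only Pop_G15G074309 and Pop_G01G004741 had the lower mean in the bottom. Pop_G15G074309 had 0.044, 0 and 0.043 FPKM in the top libraries, 4.94, 2.01 and 5.31 FPKM in the middle libraries and 6.12, 2.02 and 2.69 FPKM in the bottom libraries, a ratio of bottom to middle of 0.88. Both positions held values close to the floor of 2 FPKM as well as values near 5 or 6. Pop_G01G004741 had 0.061, 0.03 and 0.06 FPKM in the top libraries, 5.87, 6.12 and 5.41 FPKM in the middle libraries and 6.55, 4.76 and 5.27 FPKM in the bottom libraries. The ratio of bottom to middle was 0.95, and the positions overlapped.

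For the 43 genes, the spread between middle libraries was smaller without library 2. With all libraries, the median coefficient of variation was 38.7% over the middle libraries (quartiles 28.9% and 50.3%) and 46.3% over the bottom libraries (quartiles 33.8% and 59.3%). The 2735 genes rising from over 0.2 FPKM had medians of 16.9% and 15.4%, and the 35968 genes with at least 2 FPKM in all lower libraries had 15.3% and 12.03%. Without middle library 2, an alternative chosen after seeing the data, the median over the other middle libraries was 13.3% for the 43, 10.6% for the rising genes and 11.3% for the 35968. The groups also differed in level, with median middle means of 6.90, 11.3 and 9.62 FPKM and median bottom means of 9.47, 12.7 and 9.92 FPKM in the same order. The rising genes were also chosen by edgeR calls, which a small spread between libraries favours, while the 43 and the 35968 were chosen by FPKM alone. No test was made of the difference in spread, and the parts of level and of this choice in it were not tested.

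Middle library 2 was the lowest middle library for 35 of the 43 genes (81.4%), against 52.98% of the 2735 rising genes and 48.8% of the 35968. Its level was a median of 0.553 times the mean of the other middle libraries for the 43, against 0.895 times and 0.916 times in the same comparison groups. Summed over the 43 genes, the level was 417, 277 and 412 FPKM in middle libraries 1, 2 and 3. Middle library 3 was the highest for 24 of the genes (55.8%), middle library 1 for 15 (34.9%) and middle library 2 for 4 (9.30%). These shares were 36.45%, 39.05% and 24.5% among the 2735 rising genes and 29.85%, 47.2% and 22.9% among the 35968.

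In the bottom, libraries 2 and 3 held the highest value of most of the 43 genes. Bottom library 3 was the highest for 24 genes (55.8%), bottom library 2 for 17 (39.5%) and bottom library 1 for 2 (4.65%). Bottom library 1 was the lowest for 23. The shares highest in bottom libraries 3, 2 and 1 were 27.9%, 41.4% and 30.7% among the 2735 rising genes. Among the 35968 they were 35.9%, 28.65% and 35.5%. The share of bottom library 2 was thus close to that in the rising genes. Library 3 was the highest more often, and library 1 less often, than in either comparison group. Bottom library 1 stood at a median of 0.579 times the mean of the other bottom libraries for the 43 genes, against 0.973 times for the 2735 rising genes. The summed level was 370, 765 and 523 FPKM in bottom libraries 1, 2 and 3, so the library that was highest for fewer genes had the largest sum. In the top the sum was 1.79, 1.43 and 2.29 FPKM in libraries 1, 2 and 3.

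**Figure D5:**
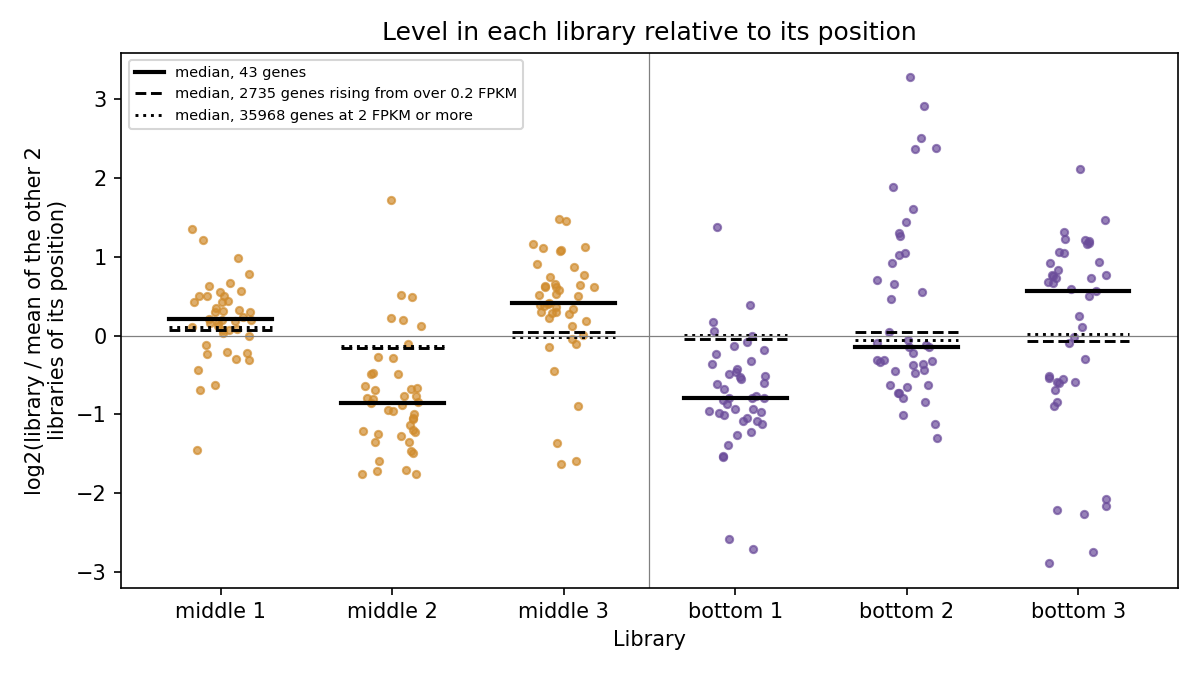
Log2 of the level in each middle and bottom library over the mean of the other 2 libraries of its position, with 1 point for each of the 43 genes and lines for the medians of the 43 (solid), of 2735 genes rising from over 0.2 FPKM (dashed) and of 35968 genes with at least 2 FPKM below the top (dotted). The solid line lies at -0.85 for middle library 2 and -0.79 for bottom library 1, where the dashed lines lie at -0.16 and -0.04.

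The genes with their highest bottom value in library 2 and those with it in library 3 differed in shape. The 17 genes highest in bottom library 2 had median levels of 7.54, 17.9 and 5.98 FPKM in bottom libraries 1, 2 and 3, and in 10 of them bottom library 2 was over 2 times the next bottom library, by up to 8.84 times. The 24 genes highest in bottom library 3 had medians of 6.27, 8.03 and 14.6 FPKM in the same libraries, with library 3 over 2 times the next in 5 of them and by up to 2.80 times. In the middle, library 2 was the lowest for 22 of these 24 genes and for 12 of the 17. These groups were formed from the values themselves, so they are a description of the libraries and carry no test.

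The choice was also tried on libraries it had not used, by choosing genes from 2 library numbers at each position and reading the libraries of the remaining number. Without the libraries numbered 1, 59 genes were chosen, and in the libraries left out 42 of them (71.2%) again had at most 0.2 FPKM in the top and at least 2 FPKM in the middle and bottom. Without number 2 it was 43 of 66 genes (65.2%), and without number 3 it was 40 of 59 (67.8%). Genes that met the limits in the libraries left out as well were all among the 43, by construction. They are therefore no separate evidence for the choice, and only the number of further genes chosen was free to vary. In the libraries left out, the middle value was above the top value in 58 of 59, 66 of 66 and 59 of 59 genes, and the bottom value in all of them. The limits in the other libraries favour this order, and no share over all genes was taken beside it. These counts are a description only. The median levels in the left-out top, middle and bottom libraries were 0.053, 5.74 and 6.12 FPKM for number 1, 0.025, 2.92 and 6.49 FPKM for number 2 and 0.06, 6.89 and 7.78 FPKM for number 3. The ceiling was met in 44 of 59 genes by top library 1, 58 of 66 by top library 2 and 46 of 59 by top library 3, with left-out top values of up to 2.45, 0.428 and 0.747 FPKM. The floor was met in 57 of 59 genes by middle library 1, 51 of 66 by middle library 2 and 56 of 59 by middle library 3, and in 55 of 59, 64 of 66 and 55 of 59 by bottom libraries 1, 2 and 3.

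The limits cut through a continuous range. The members nearest the ceiling had a highest top value of 0.197, 0.197 and 0.191 FPKM, and the genes just above it, which met the other criteria, had 0.208, 0.214 and 0.214 FPKM. The members nearest the floor had a lowest value below the top of 2.00, 2.01 and 2.02 FPKM, and the genes just under it had 1.95, 1.92 and 1.84 FPKM. A further 56 genes met the floor with a highest top value over 0.2 and up to 0.5 FPKM, and 39 met the ceiling with a lowest value of 1 to 2 FPKM below the top. Of the genes with at least 2 FPKM in all lower libraries, the 43 were 0.12%.

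The rule did not use identifier class, while gene length entered it through FPKM, so lengths are given as a description only. The 43 genes had a median implied length of 1226 bases, with quartiles of 751 and 1607 bases and a range of 256 to 2829 bases. The 2735 rising genes had a median of 1692 bases and the 35968 genes one of 1538 bases, and 16.3%, 6.98% and 9.07% of the groups were shorter than 500 bases. Class A held 24 of the 43 identifiers (55.8%), class G 18 (41.9%) and class Un 1. In the rising genes these classes held 49.5%, 48.8% and 1.68%. The 43 identifiers fell under many of the numbered groups that follow the class letter, most often A06 with 5 and G01 with 4, where 1380 and 2095 genes of these groups had at least 2 FPKM in all lower libraries. These shares are given side by side without a test.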

How the data were processed

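RNA was measured in 9 stem libraries, 3 per position. Per the labels' protocols, poly(A) RNA was sequenced as paired-end reads. The submitters' processing notes name Trimmomatic 0.36 and HISAT2. The counter, its strand setting, the annotation and the genome build were not given in the sources used here. Deposited by the authors were a table of whole-number counts and a table of FPKM. All count entries were even (0 odd of 503602 above 0). Sample titles hold the code that names each column, and 0 columns were of other samples. Gene length was inferred from the ratio of the tables.

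The members and lists were chosen with earlier results of these data known. Counts as deposited were fitted with edgeR 4.0.16 in R 4.3.3, with filterByExpr (minimum count 10, minimum total 15), TMM scaling and 1 coefficient per position over all 9 libraries. Adjustment was by Benjamini-Hochberg over all 52436 genes. The fit was tested on simulated data. DESeq2 1.42.0 and limma 3.58.1 were alternatives, as were other scaling, filters, limits and left-out libraries. The genes named were the 2 highest in mean level below the top and the 2 highest and 2 lowest in ratio of bottom to middle. Deviations of same-numbered libraries from their position means had correlations of 0.112 to 0.27 between middle and top. They had -0.156 to 0.126 between bottom and top and 0 to 0.055 between bottom and middle. Libraries of unlike number had -0.188 to 0.038 between middle and top, but top library 1 and bottom library 2 reached 0.16. Whether the number pairs libraries cannot be told from these values, so it was used as a block only in an alternative. With the replicate block, 43 of the 43 genes were called higher in middle than in top, which the choice of genes all but fixes, while such calls over all genes numbered 3951, against 4301 without it. Planned lists of genes by name were not counted, since the identifiers carry no names.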

Additional observations from a re-analysis of the deposited data

How the results depend on the processing

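The number of genes meeting the rule depended most on its limits: it was 98 with a top ceiling of 0.5 FPKM, 82 with a floor of 1 FPKM and 16 with a floor of 5 FPKM, against 43 as given. Leaving out 1 library, or 1 library number in all positions, gave 41 to 66 genes, the most without number 2. A ceiling of 0.1 FPKM gave 29 and FPKM divided by TMM factors gave 40. For middle against top, the count called higher was 43 in each alternative with all 9 libraries or without 1 of them, and 24 to 43 without 1 library number, lowest without number 3. For bottom against top it was 39 to 43 over all alternatives. Calls over all genes moved far more, between 207 and 7087 for middle against top and between 1343 and 8996 for bottom against top. Each was lowest without number 3 and highest in DESeq2. The replicate block left both counts at 43 and the counts for bottom against middle at 0, so it changed no call among the 43, whose calls against the top the choice of genes all but fixes. Between bottom and middle, 1 gene was called higher in DESeq2 and 1 in limma on log2(FPKM + 1), and 0 in each other alternative. In every alternative 0 were called lower. Calls over all genes numbered 0 to 111 higher and 0 to 1657 lower, with the most in DESeq2. Where 0 of all genes were called, as in either direction without number 3, a count of 0 among the 43 was fixed. The median log2 ratio of bottom to middle was 0.45 and ran between 0.06 and 0.70 as libraries or numbers were left out. It was 0.05 on the median of the 3 libraries in place of their mean. The cause of these shifts was not tested. Depth limits the top values, which rest on 0 to 23 read pairs per gene.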

Other observations

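In 2 places, 2 of the 43 genes stood on neighbouring rows of the deposited tables. They were singled out after their values were seen, and what row order stands for is not given in the sources used here. Pop_A15G014679 and Pop_A15G014680, whose identifiers differ by 1, had similar levels in the lower libraries. Pop_A15G014679 had 4.68, 2.14 and 9.34 FPKM in the middle libraries and 7.11, 4.82 and 8.82 FPKM in the bottom libraries, and Pop_A15G014680 had 5.52, 2.00 and 5.81 FPKM in the middle libraries and 5.55, 5.09 and 7.52 FPKM in the bottom libraries. Middle library 2 was the lowest lower library and library 3 the highest of both positions for each of them. This shape was common among the 43. Middle library 2 was the lowest middle library for 35 genes and bottom library 3 the highest bottom library for 24, with middle library 3 the highest middle library in 15 of these 24. Their implied lengths were 274 and 764 bases.

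Pop_A06G053506 and Pop_A06G053617 also stood on neighbouring rows. Their levels were unlike, with 12.96, 8.18 and 15.8 FPKM in the middle libraries for Pop_A06G053506 and 3.33, 2.29 and 4.02 FPKM for Pop_A06G053617. In the bottom libraries they had 17.2, 12.1 and 24.4 FPKM and 2.83, 4.64 and 6.19 FPKM in the same order. Middle library 2 was the lowest middle library and library 3 the highest at both positions in each.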
